A study of Homo sapiens with 21 samples.

Results

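786-O is a cell line established from a human kidney carcinoma of the clear cell type. In it, 210 chromatin regions gave JMJD6 ChIP-seq peaks in both sequencing batches but shared no base with an H3K4me3 region of both H3K4me3 libraries. They are called unmarked regions below, a word that refers to H3K4me3 alone. They were found by merging the overlapping peaks of 4 JMJD6 ChIP libraries into 1689 regions. Of these, 1025 held a peak of replicate 1 or 2 and a peak of replicate 3 or 4 and are called reproducible. From the reproducible regions, 815 were set aside because they shared at least 1 base with a merged H3K4me3 region that held a peak of both H3K4me3 libraries. These 815 are called marked regions. The unmarked regions were thus chosen by the positions of JMJD6 and H3K4me3 peaks, so their fold enrichment, width and number of libraries are given as descriptions with no test.

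JMJD6 ChIP replicates 1 and 2 are labelled sequencing batch 1, while replicates 3 and 4 and both H3K4me3 libraries are labelled batch 2. All 6 libraries came from cells labelled wild type for JMJD6, were fixed with formaldehyde and pooled several culture dishes per sample. The labels attach a protocol for transfection with siRNA to every sample and do not say whether the ChIP cells were transfected, or whether the replicates were separate cultures. ChIP of cells without JMJD6 was not analysed here, and the series' inputs and RNA libraries were not used.

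JMJD6 is a 2-oxoglutarate-dependent oxygenase that hydroxylates lysines of proteins such as splicing factors. It has also been described on chromatin, at enhancers far from genes. H3K4me3 is laid down at the promoters of active genes, whereas active enhancers usually carry little of it. An unmarked region shares no base with an H3K4me3 region of both libraries, but this alone does not place it away from an active promoter. Of the 210, 13 lay under 1 kb from such an H3K4me3 region. Enhancer marks were not analysed here.

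The JMJD6 lists held 978, 1344, 923 and 1139 peaks in replicates 1 to 4, and the H3K4me3 lists held 18745 and 18601. Of 19107 merged H3K4me3 regions, 16218 held a peak of both libraries, with a median width of 1810 bp. Gaps to H3K4me3, counts of H3K4me3 regions and H3K4me3-free intervals below refer to these 16218 alone. An H3K4me3 peak of a single library may therefore lie nearer or inside such an interval. Fold enrichment below is the authors' value for a peak over the peak caller's background, and where a library had several peaks in a region the highest was taken. How deeply the ChIP libraries were sequenced is unknown, and a list says nothing of the signal outside its peaks. Positions are those of hg19, counted from 1, and no gene was assigned to a region because an annotation of this build was not used here.

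The strongest unmarked regions stood near the top of every list. The first was chr19:51182514-51183134, with a fold enrichment of 55.3, 68.0, 39.4 and 71.7 in replicates 1 to 4 and a geometric mean of 57.1. Its summits, the positions of highest signal, lay within 3 bp of each other in the 4 libraries. The next was chr19:45430144-45430895, with 43.1, 66.7, 49.1 and 74.2. A second region 11.3 kb before it, chr19:45418053-45418797, had 42.8, 44.9, 36.2 and 41.7. The nearest H3K4me3 region found in both H3K4me3 libraries was 26.4 kb from the stronger and 21.9 kb from the weaker of this pair, although the weaker overlapped an H3K4me3 peak of a single library.

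Chromosome 6 held 3 of the 10 strongest. The region chr6:29617610-29618255 had a fold of 64.5, 65.8, 53.7 and 43.2, the region chr6:32920702-32921311 had 46.1, 54.4, 42.2 and 56.0, and chr6:26473792-26474672 had 49.9, 43.8, 46.8 and 56.2. On chromosome 5, chr5:149789186-149790733 had 66.0, 44.8, 41.1 and 53.2. In the same run, chr5:149792279-149793004 had 49.3, 38.0, 38.3 and 36.0. The list was completed by chr11:62323379-62324163, with 52.0, 62.9, 41.6 and 45.1, and by chr19:49163953-49164828, with 37.6, 41.7, 27.9 and 29.8. Every library thus had a peak of at least 27.9 in each of these 10 regions, against medians between 8.85 and 9.92 over all unmarked regions. By fold they ranked from 11 to 58 in the list of replicate 1, from 11 to 60 in replicate 2, from 17 to 85 in replicate 3 and from 10 to 93 in replicate 4. The distance of these 10 regions to an H3K4me3 region of both libraries ran from 8.03 to 36.6 kb, with a median of 18.9 kb, and 3 of them overlapped an H3K4me3 peak of a single library.

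**Figure D1:**
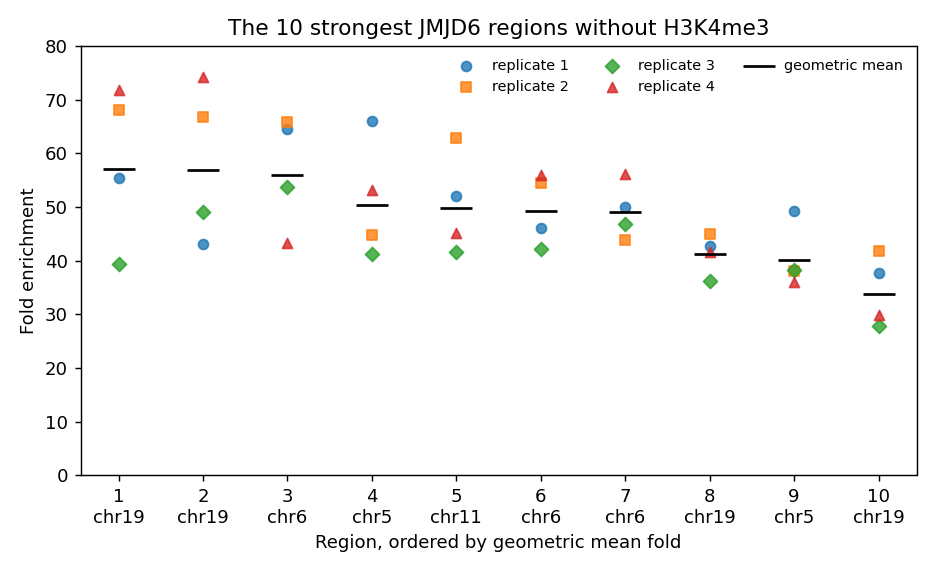
Fold enrichment (vertical axis, linear) of the 10 unmarked regions with the highest geometric mean, from left to right. Symbols are the 4 JMJD6 libraries and bars the geometric means, which run from 57.1 down to 33.8, and the lowest symbol of all stands at 27.9.

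At the other end, the 3 lowest regions had geometric mean folds of 1.82, 2.53 and 3.39 although they had peaks in 3 or 4 libraries. These were picked out with their values in view. The pair chrUn_gl000220:118466-119375 and chrUn_gl000220:119702-120048 lay on an unplaced contig, one that, as background, is known to carry ribosomal DNA. The wider one had a fold of 2.79, 1.81, 3.07 and 2.64, and its summits were spread over 499 bp, the widest spread among unmarked regions found in all 4 libraries. The narrower had 2.06, 1.75 and 1.67 in replicates 1, 2 and 4 and no peak in replicate 3. The last of them, chr10:103124511-103124831, had 4.12, 2.64, 4.27 and 2.85. In all, 3 of the 210 unmarked and 5 of the 815 marked regions lay outside the assembled chromosomes.

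Compared with marked regions, unmarked regions had a slightly lower median fold in every library. The median was 8.85, 9.28, 9.92 and 9.35 in replicates 1 to 4 for unmarked regions, against 9.69, 9.32, 11.1 and 10.6 for marked regions. The ratio of the medians was 0.913, 0.996, 0.895 and 0.883, with a mean of 0.922 ± 0.0509 (SD, n = 4 libraries), and was under 1 in 4 of 4 libraries. In replicate 2 the difference nearly vanished, and the quartiles of both sets overlapped widely in every library. Of the 50 peaks with the highest fold in replicates 1 to 4, unmarked regions held 10, 8, 9 and 8, and marked regions held 40, 42, 41 and 42. Unmarked regions were 20.5% of the reproducible regions, so their number at the top of the lists was close to or slightly under their share. A geometric mean fold of at least 20 over the libraries with a peak was reached by 23 unmarked regions (11.0%) and by 122 marked regions (15.0%).

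In both sets, fold was higher in regions found in more libraries. A library lists a region only where its enrichment there suffices, so the number of libraries is itself bound to fold. The medians that follow are a description, and no account of the lower median of unmarked regions is drawn from them. Among regions with peaks in all 4 libraries the geometric mean fold had a median of 11.9 in 118 unmarked and 11.9 in 567 marked regions. With peaks in 3 libraries it was 7.26 in 50 unmarked and 6.76 in 134 marked regions, and with peaks in 2 libraries 6.30 in 42 unmarked and 6.16 in 114 marked regions. Within the regions found in all 4 libraries, the ratio of the library medians was 1.02, 1.17, 0.964 and 0.967 in replicates 1 to 4, so it lay above 1 in batch 1 and below 1 in batch 2. Replicate 2 had the longest list and gave the highest fold in 50 of these 118 unmarked regions, against 16, 25 and 27 for replicates 1, 3 and 4. Whether depth plays a part in this was not tested.

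**Figure D2:**
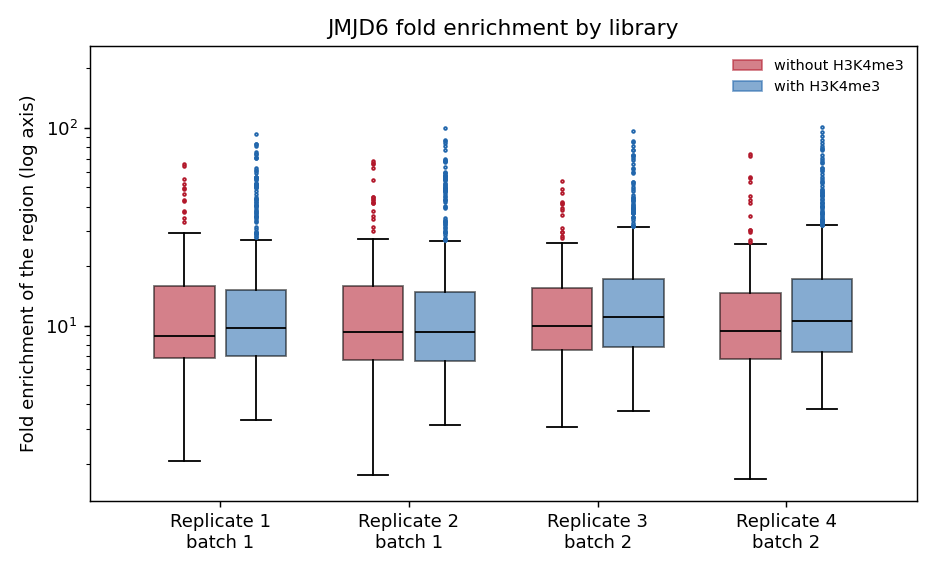
Fold enrichment (log axis) of unmarked regions (red, left in each pair) and marked regions (blue) in each JMJD6 library. Boxes show quartiles with the median as a line, whiskers reach 1.5 times the box height and dots are regions beyond; the boxes overlap in all 4 libraries, and the highest dots are blue.

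Reproducibility differed between the sets. Of the 210 unmarked regions, 118 (56.2%, exact Clopper-Pearson 95% interval 49.2 to 63.0) had a peak in all 4 libraries, 50 in 3 and 42 in 2. Of the 815 marked regions, 567 (69.6%, interval 66.3 to 72.7) had a peak in all 4. Read the other way, 249 of 581 regions with a peak in a single library lacked H3K4me3 (42.9%, interval 38.8 to 47.0). This share was 32.6% with peaks in 2 libraries (78 of 239), 27.2% in 3 (50 of 184) and 17.2% in 4 (118 of 685, interval 14.5 to 20.3). The regions with peaks in 2 libraries include some of a single batch; among the reproducible ones the share was 26.9% (42 of 156), nearly that with 3 libraries. Over the reproducible regions it was 20.5% (interval 18.1 to 23.1), and over the 664 regions of a single batch 42.9% (interval 39.1 to 46.8). Of the 285 single-batch regions without H3K4me3, 209 held a peak of replicate 2, which had the longest list. Replicates 1, 3 and 4 had a peak in 54, 22 and 36 of them. The matching counts for single-batch regions with H3K4me3 were not taken. The intervals cover counting error only.

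Among the libraries, replicate 2 had a peak in 204 unmarked regions, replicate 4 in 181, replicate 1 in 163 and replicate 3 in 158. Of unmarked regions with peaks in 2 libraries, 22 were in replicates 2 and 4, 14 in 2 and 3, 3 in 1 and 4, and 3 in 1 and 3. Fold values of the 118 unmarked regions found everywhere were ordered much alike: Spearman's rho across these regions was from 0.684 to 0.758 over the 6 pairs of libraries, 0.754 between the replicates of batch 1 and 0.699 between those of batch 2. Regions are not independent replicates, and this rho is a description. In a single region the highest of the 4 fold values was a median of 1.71 times the lowest, and at most 4.64 times.

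Unmarked regions were narrow, with a median merged width of 373 bp and a range from 207 to 1579 bp, against 398 bp for marked regions. For regions with peaks in all 4 libraries the medians were 442.5 bp unmarked and 439 bp marked. Within single libraries the median width of the peak was 313, 371.5, 259 and 281 bp for unmarked and 320.5, 369, 289 and 323 bp for marked regions in replicates 1 to 4. It was smaller in unmarked regions in all libraries but replicate 2. The shortest peak of each list was 184, 207, 161 and 177 bp. Summits of the 118 unmarked regions found in every library agreed closely between libraries. Their range over the libraries had a median of 44 bp, against 47 bp in the 567 marked regions, and the mean summits of the batches lay a median of 13 bp apart, against 15.5 bp. Wider unmarked regions had a higher fold, with a Spearman's rho of 0.738 across 210 regions. Regions found in all 4 libraries had both a larger merged width and a higher fold, and this rho does not separate the number of libraries from width. More than 1 peak of a library was held by 4 unmarked regions (1.90%) and by 15 marked regions (1.84%).

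The widest was chr1:45195615-45197193, with 1579 bp and 6 peaks, a fold of 7.89, 10.1, 8.00 and 11.7, and summits spread over 384 bp. It was followed by the chromosome 5 region of 1548 bp described above, which held 7 peaks. After it, chr1:28974866-28976209, was 1344 bp wide and had a fold of 16.7, 16.8, 17.3 and 24.7. It lay 52 bp from an H3K4me3 region of 348 bp.

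Most unmarked regions lay 10 kb or more from an H3K4me3 region of both libraries. The gap to the nearest H3K4me3 region of both libraries had a median of 25.2 kb, with quartiles of 9.31 and 84.7 kb. It was under 1 kb in 13 regions (6.19%), from 1 to under 10 kb in 43 (20.5%), from 10 to under 100 kb in 109 (51.9%) and 100 kb or more in 45 (21.4%). JMJD6 regions of a single batch that also lacked H3K4me3 had nearly the same spread: of 285, 6.67% lay under 1 kb, 19.3% between 1 and 10 kb, 50.9% between 10 and 100 kb and 23.2% at 100 kb or more, with a median of 26.1 kb. For marked regions the nearest H3K4me3 region that they did not overlap was a median of 24.7 kb away, with an upper quartile of 58.1 kb. The medians and lower quartiles were close, and the upper quartile was higher in unmarked regions, at 84.7 kb. The largest gap was 1061 kb in unmarked and 1272 kb in marked regions.

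**Figure D3:**
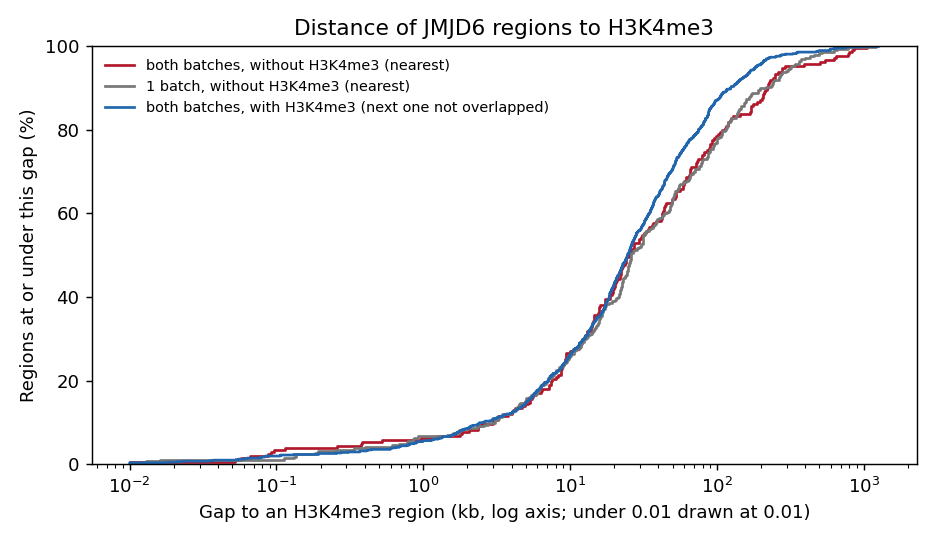
Cumulative share of regions (vertical axis, percent) at or under a gap to H3K4me3 (horizontal axis, kb, log scale). The curve of the 210 unmarked regions (red) runs with that of 285 unmarked regions of a single batch (grey), with medians of 25.2 and 26.1 kb, and the curve of marked regions to their next H3K4me3 region (blue) lies above both over much of the range beyond its median.

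The gap showed little relation to the strength of the region. Spearman's rho between the mean log2 fold and the gap was -0.069 across the 210 unmarked regions, and the median gap was 31.8, 21.997 and 25.2 kb for regions with peaks in 2, 3 and 4 libraries. The H3K4me3 region nearest to an unmarked region had a median width of 1779 bp, close to the 1810 bp of all H3K4me3 regions. Its fold had a median of 60.1, against 65.4 over all H3K4me3 regions and 85.8 for those that marked regions overlapped.

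The farthest unmarked region was chr3:144812377-144812783, 1061 kb from H3K4me3, and it had a peak in every library with a fold of 11.7, 12.2, 8.40 and 12.2. The region chr10:78057874-78058293 lay 866 kb away and had a fold of 6.15 in replicate 2 and 6.20 in replicate 3 with no peak in the others. The region chr12:128471784-128472250 lay 834 kb away, with 15.2, 16.0, 13.3 and 19.3. The farthest regions thus included regions found in every library and one found in 2.

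At the border of the definition, chr19:6737765-6738166 abutted an H3K4me3 region with no base between them and had a fold of 6.43, 13.8, 6.60 and 14.0. After the region 52 bp away on chromosome 1, chr12:57609470-57609849 was the next nearest, at 57 bp, with 8.85, 6.93 and 9.15 in replicates 1, 2 and 4. Just outside it, chr10:14647241-14647585 shared 4 bases with an H3K4me3 region and had 7.74, 5.89 and 7.52 in replicates 1, 2 and 3. Likewise chr18:60382078-60382463 shared 5 bases and had 8.48, 5.05, 10.2 and 9.18, and chr17:38443670-38444035 shared 11 bases and had 6.21, 11.7 and 7.45 in replicates 2, 3 and 4. The geometric mean fold was 9.51, 18.6 and 8.25 in the 3 nearest unmarked regions, against 6.998, 7.95 and 8.16 in these 3 marked regions.

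A further 7 unmarked regions (3.33%) overlapped an H3K4me3 peak that only 1 of the H3K4me3 libraries had, and 3 of them were among the 10 strongest. These 3 were chr6:26473792-26474672, chr6:29617610-29618255 and chr19:45418053-45418797, with 490, 318 and 241 bases in such a peak. Among the others was chr17:29907866-29908491, picked with its values in view with a fold of 23.5, 35.6, 24.8 and 10.9 and 109 bases in such a peak. The other 203 unmarked regions overlapped no H3K4me3 peak of either library.

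Unmarked regions lay on 25 of the 29 chromosomes and contigs that held a reproducible JMJD6 region. Chromosome 19 had the most, 32 regions or 15.2% of all unmarked regions, against 14.4% of marked regions. Chromosome 1 followed with 23 (11.0%, against 11.4%). Chromosome 6 had 18 (8.57%, against 5.03%), so that 30.5% of its 59 reproducible regions were unmarked (interval 19.2 to 43.9). Higher shares on fewer regions were seen on chromosome 21, with 5 of 10 (50%), and on chromosome 4, with 7 of 19 (36.8%). The share was 21.5% on chromosome 19 (interval 15.2 to 28.9) and 19.6% over all chromosomes other than 6 and 19 (interval 16.9 to 22.5). The intervals overlap, and regions on a chromosome are not independent, so no chromosome was tested against the rest. The unmarked regions of chromosomes 6 and 19 had a median geometric mean fold of 14.0 and 11.4, against 7.82 elsewhere. Those of chromosome 6 lay a median of 128 kb from H3K4me3, those of chromosome 19 a median of 9.31 kb and those elsewhere 30.1 kb. When regions up to 1 Mb apart were joined, a single run, described below, held 13 of the 18 on chromosome 6. Another, with gaps of at most 100 kb, held 13 of the 32 on chromosome 19. How much each median depends on these runs was not computed. Whether marked regions of these chromosomes also had a higher fold was not examined.

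**Figure D4:**
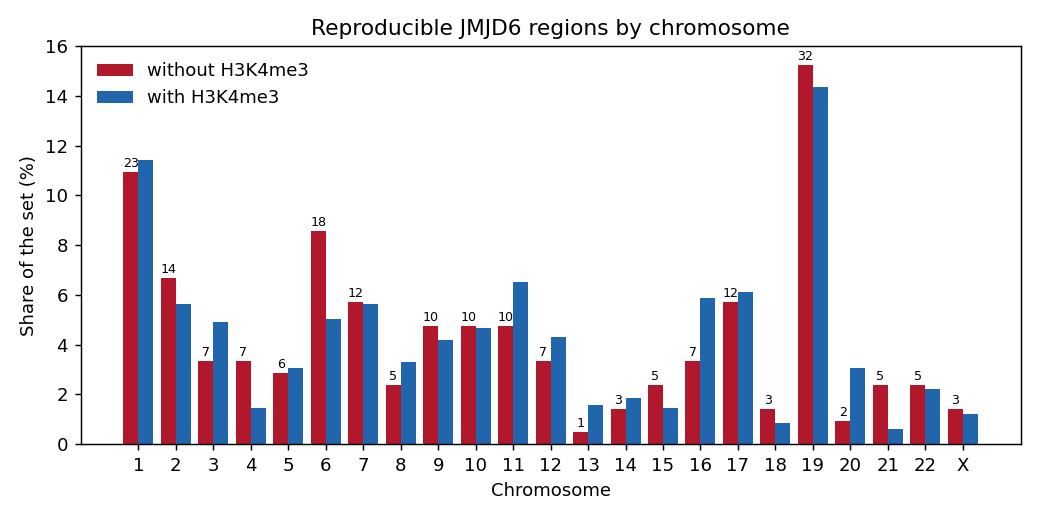
Share of the unmarked regions (red, left in each pair, with their number above) and of the marked regions (blue) on chromosomes 1 to 22 and X, in percent of each set. Chromosome 19 holds the largest share of both sets, 15.2% and 14.4%, and chromosome 6 holds 8.57% of unmarked and 5.03% of marked regions.

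Part of the unmarked regions stood in short runs. Of 210, 45 lay within 100 kb of another unmarked region (21.4%, interval 16.1 to 27.6), and 165 stood alone. Of the 815 marked regions, 24.3% lay within 100 kb of another marked region (interval 21.4 to 27.4). Marked regions are far more numerous, and more regions bring neighbours nearer, so these shares are not on one footing. Counted against any other reproducible region, 66 unmarked regions had a neighbour within 100 kb (31.4%, interval 25.2 to 38.2), against 213 marked regions (26.1%, interval 23.1 to 29.3). The median gap to the nearest region of the same set was 2768 kb for unmarked and 373 kb for marked regions. The 45 formed 13 runs with gaps of at most 100 kb, of which 7 were pairs and 6 held 3 or more regions, 31 regions in all.

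The longest run held 13 unmarked regions over 494 kb, from chr19:48922522 to chr19:49416770, and 11 of them had peaks in all 4 libraries. The same stretch held 17 H3K4me3 regions and 3 marked JMJD6 regions, where all positions together held 16218 and 815. Its geometric mean folds ran from 7.77 to 33.8, with a median of 12.8. The highest was chr19:49163953-49164828, given above. It was followed by chr19:49148011-49148454, 96 bp from an H3K4me3 region, with 26.2, 34.8, 29.7 and 26.6. Next came chr19:49077784-49078444, with 38.1, 41.7, 23.4 and 17.5, where both values of batch 1 exceeded both of batch 2. By contrast, chr19:49013773-49014191 was even across libraries, with 22.5, 22.4, 21.8 and 20.2. In the second run of this chromosome, 4 regions lay within 25.01 kb, from chr19:55815683 to chr19:55840688. The strongest of them, chr19:55840317-55840688, had a fold of 17.0, 18.3, 17.2 and 12.2.

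On chromosome 6, unmarked regions gathered on the part of the short arm that, as background, belongs to the class II section of the major histocompatibility complex, a cluster of genes for antigen presentation. The stretch of 641 kb from chr6:32164775 to chr6:32805371 lay between neighbouring H3K4me3 regions of both libraries and had no such region within it. It held 8 unmarked regions, the most of the 184 such intervals with an unmarked region, and 172 of these intervals held a single one. The interval was chosen after its values were seen. Its strongest region, chr6:32577410-32578080, had a fold of 34.9, 42.1, 29.8 and 25.2, and chr6:32407222-32407864 had 22.8, 22.2, 24.5 and 30.3. The neighbours chr6:32634355-32634767 and chr6:32636104-32636516, 1.34 kb apart, had 7.57, 19.3, 12.8 and 11.1, and 20.3, 18.3, 16.4 and 14.6. Lower values were seen at chr6:32441294-32441669, with 8.99, 8.80, 10.6 and 8.67, and at chr6:32557492-32557814, with 8.85, 12.6, 9.04 and 6.50. The remaining 2 regions, chr6:32595765-32595990 and chr6:32784766-32785014, had peaks in 3 and 2 libraries. All but the last of the 8 lay at least 169 kb from H3K4me3.

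Beyond this interval the strong region chr6:32920702-32921311 lay 11.6 kb from H3K4me3, and a run of 3 followed within 39.0 kb. In it chr6:33041367-33041691 had 10.3, 6.23, 11.5 and 10.6, chr6:33043352-33043833 had 19.2, 19.7, 16.0 and 23.6, and chr6:33079806-33080329 had 18.1, 18.7, 9.40 and 14.0. All 3 had peaks in every library and stood in an H3K4me3-free interval of 186 kb. When regions up to 1 Mb apart were joined, the run of chromosome 6 held 13 unmarked regions from chr6:31430620 to chr6:33080329, among 6 marked JMJD6 regions and 46 H3K4me3 regions.

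The remaining runs of 3 were on chromosomes 5 and 1. The run from chr5:149789186 to chr5:149793004 was the tightest, at 3.82 kb. Between its 2 strong regions, the region chr5:149790814-149791248 had a fold of 12.5, 10.5, 11.5 and 8.03 and was separated from the first by 80 bp. The smallest gap from any of these 3 regions to an H3K4me3 region of both libraries was 34.4 kb. The run from chr1:45186826 to chr1:45285917 spanned 99.1 kb, contained 4 H3K4me3 regions, and had geometric mean folds between 7.74 and 9.28. Its first region, chr1:45186826-45187862, was uneven, with 4.66 in replicate 1 and 12.2, 12.1 and 9.35 in replicates 2, 3 and 4.

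**Figure D5:**
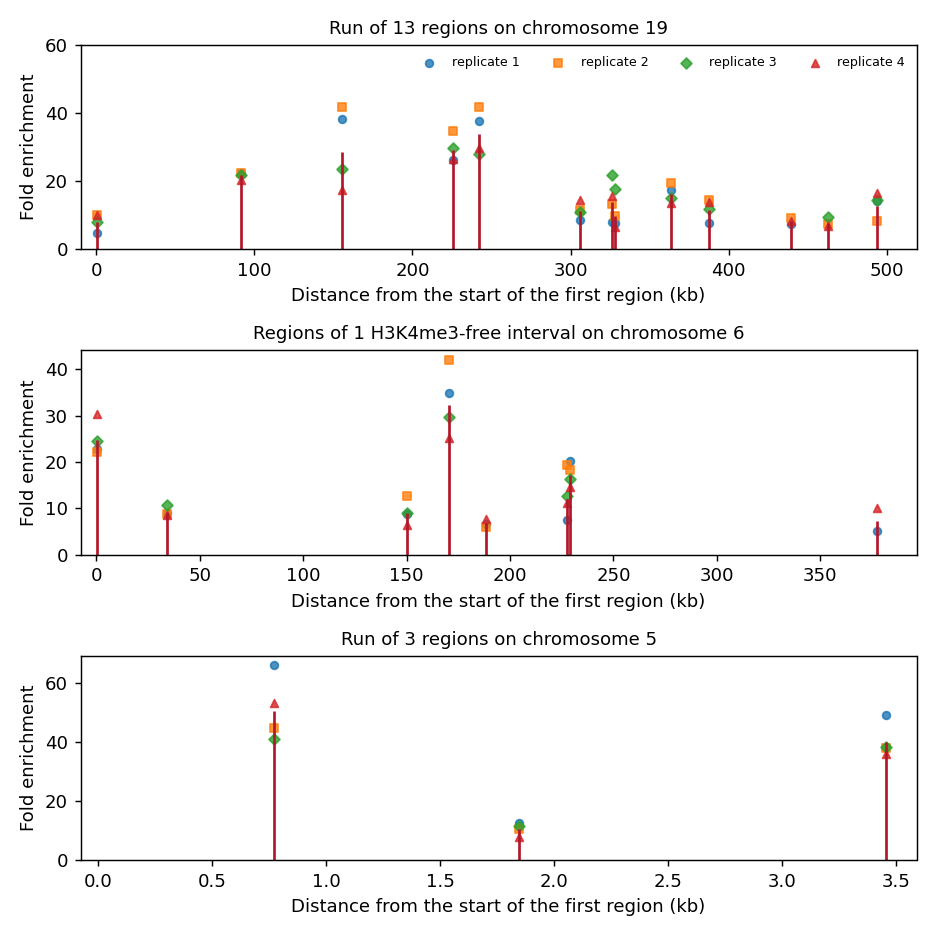
Fold enrichment (vertical axes, linear) of neighbouring unmarked regions against distance in kb from the start of the first region, in the run of 13 on chromosome 19 (top), the 8 regions of the H3K4me3-free interval on chromosome 6 (middle) and the run of 3 on chromosome 5 (bottom). Each region is drawn at its centre, lines show geometric means and symbols the libraries; folds vary within each run, and on chromosome 5 the middle region, at 10.5, stands between regions at 50.4 and 40.1.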

How the data were processed

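For each ChIP library the authors deposited 1 peak list, in the format MACS2 writes. Their deposited columns hold the fold enrichment of the peak, the −log10 p-value and −log10 q-value, and the offset of the summit from the peak start, all as the authors' peak caller gave them. The submitters' processing notes list MACS2 2.1.2, STAR 2.5.2b, cutadapt 1.12, bedtools 2.26 and hg19 without a role. Which tool aligned the ChIP reads, duplicate removal and the use of inputs are not given in the sources used here. A deeper library can yield more peaks of low fold, and a high local background lowers a fold.

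Peaks sharing at least 1 bp were merged, and gaps were counted as bases between edges. The ratios of fold between unmarked and marked regions were taken within each library. Geometric means were taken over the libraries with a peak and so mix libraries. For regions not found in every library, this mix differed between unmarked and marked regions. Fold values set side by side across libraries are descriptions. Shares have exact Clopper-Pearson 95% intervals. No test compared sets of regions, because the lists chose them, and Dixon's criterion was used only to flag single libraries. The interval functions gave the base-by-base answer on simulated peaks. Named were the 10 strongest, the 3 nearest to and farthest from H3K4me3, the 3 widest, runs of at least 3 within 100 kb, and the 3 marked regions with the least overlap. The regions and rules were chosen with earlier results of these data known. The series has 21 samples, of which these 6 were used. Python 3.11.15, pandas 2.3.3 and SciPy 1.17.1 were used. Alternatives changed the merging, the H3K4me3 definition, thresholds and the libraries.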

Additional observations from a re-analysis of the deposited data

Results flagged for a closer look

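Among 53 values examined over the 4 JMJD6 libraries, 4 had a library far from the other 3, by a ratio of the gap to the range above Dixon's 95% critical value. Chance alone gives about 1 in 20. All are fold enrichments of single unmarked regions. Replicate 1 was high at chr5:149792279-149793004 with 49.3, replicate 4 was high at chr1:28974866-28976209 with 24.7, replicate 3 was low at chr3:144812377-144812783 with 8.40, and replicate 2 was high at chr1:45285336-45285917 with 9.82. Each of the 4 libraries was the distant one in 1 case.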

How the results depend on the processing

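Of 94 values recomputed under alternatives, 78 stayed within the spread between libraries, the binomial interval or, for the number of regions, a factor of 1.5. For merged width, that spread was the SD of the median peak width over the libraries, which is a different measure. For the gap, it was the SD of medians over the unmarked regions with a peak in each library, and these sets overlap. Requiring a peak in all 4 JMJD6 libraries left 118 unmarked regions, 17.2% of the 685 regions found in all 4, with a median width of 442.5 bp, a fold ratio to marked regions of 1.03 and 28.8% within 100 kb of another. The median fold of unmarked regions was then above that of marked ones in replicates 1 and 2 and below it in replicates 3 and 4. Counting regions as unmarked unless at least 50% of their bases were covered gave 24.98% and a median gap of 17.4 kb, and a margin of 1 kb around H3K4me3 gave a gap of 29.3 kb, both shifts set by the change of definition. The share near another unmarked region was 9.05% at 10 kb and 36.7% at 1 Mb. Leaving out 1 JMJD6 or H3K4me3 library at a time gave from 158 to 209 unmarked regions, a share of 18.9% to 20.8%, a median gap of 23.9 to 25.3 kb, a width of 337 to 407.5 bp, a fold ratio of 0.898 to 0.992, the last without replicate 4, and 20.1% to 26.3% within 100 kb. The share found in all JMJD6 libraries left was 55.3% to 82.3%. Its low end came from leaving out an H3K4me3 library, and leaving out a JMJD6 library, where 3 peaks sufficed, gave 62.9% to 82.3%. No paired analysis was possible because every comparison is between sets of regions in the same libraries and none is between groups of samples. Depth is unknown, so regions without a peak in a library cannot be told from regions below its detection.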
